A study of Mus musculus with 8 samples.

Results

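The ETS factors and Sprouty feedback genes described here are 10 genes that report on signalling through the kinase ERK: Etv1, Etv4 and Etv5, the Sprouty genes Spry1, Spry2 and Spry4, the Spred genes Spred1 and Spred2, and the phosphatase genes Dusp4 and Dusp6. Members were the probe sets of the array annotated to these symbols, taken by name and not by signal. The genes themselves were chosen with earlier results of these data known. There were 27 such probe sets with 1 gene symbol each, for 9 of the 10 genes, among 45101 probe sets and 18193 named genes on the array. Etv1 had no probe set of its own: 3 probe sets carry its symbol together with that of the pseudogene Gm5454, and their signals cannot be assigned to either. Their signals were 6.4 to 79.5 on Wt1 siRNA arrays and 5.7 to 120.7 on control siRNA arrays, all under the highest background signal of 227.2.

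LB-22 is an immortalized line made from mouse embryonic kidney. In 4 samples the cells received 25 pmol of an siRNA against Wt1, and in 4 samples the same amount of a scrambled control siRNA. Both groups were grown at 33 °C with interferon gamma at 10 U/ml, in medium with 10% serum and 2 ng/ml of basic FGF, itself a ligand that activates ERK. Both were then moved to 37 °C without interferon at transfection. They were transfected for 6 h and grown for 48 h, and total RNA was put on 1 Affymetrix Mouse430_2 array per sample. Nothing in the labels says that the 4 samples of a group were separate cultures, so p-values measure only how far these samples spread, and that spread may be technical.

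Growth factors such as FGFs bind receptor tyrosine kinases, which switch on RAS and then a chain of kinases ending in ERK. ERK raises the transcription of the PEA3 group of ETS factors (Etv1, Etv4, Etv5) and of inhibitors that act back on the pathway. Sprouty and Spred proteins act upstream, on the steps from receptor to RAF, and the dual specificity phosphatases encoded by Dusp4 and Dusp6 remove the activating phosphates from ERK, Dusp6 in the cytoplasm and Dusp4 in the nucleus. In the developing kidney, Etv4 and Etv5 act downstream of the receptor RET at the tips of the ureteric bud, and Spry1 restrains that receptor. Wt1 encodes a zinc finger transcription factor needed for kidney formation.

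The Wt1 transcript was lower on the arrays treated with its siRNA, at a mean signal of 1610 ± 251 on Wt1 siRNA arrays and 7787 ± 607 on control siRNA arrays (SD, n = 4 each). A two-sided permutation test, exact over the arrays, gave p = 0.0286, which is as low as 4 against 4 can go, and the log2 difference was -2.28 ± 0.11 (SE; limma adjusted p = 9.17e-07). The signal is the authors' MAS5 intensity on a linear scale. Median signals were 279.1 to 346.1 over the 8 arrays. Precision depends on how many arrays there were and on their spread within groups. Differences are log2 of the signal, Wt1 siRNA minus control siRNA, with the SE of the fit. A probe set was tested with limma if its mean signal placed it in the brighter 22518 probe sets, with a lowest mean of 291.1, and was called at an adjusted p under 0.05. Of those, 23.1% were called, 10.8% higher (2430) and 12.3% lower (2764) after Wt1 siRNA. With the array medians set equal (centring), 2459 were called higher and 1369 lower. In RNA from whole cultures, fewer cells of a type and less RNA per cell cannot be told apart.

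The members moved in both directions. Etv4 and Spred2 were higher, and Spry1 and Dusp6 lower, after Wt1 siRNA, each on 1 probe set. Of 27 member probe sets 19 passed the filter on signal, and of these 2 rose, 2 fell and 15 did not pass the test. This is 21.1% of the tested member probe sets, against 23.1% of all tested probe sets, so the share of members called was near the background. The median difference was 0.10 over the tested members and -0.01 over all tested probe sets. In 3 of the 19 (15.8%) the signals of the groups did not overlap, namely Etv4, Spred2 and Dusp6, against 27.0% over all tested probe sets.

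**Figure D1:**
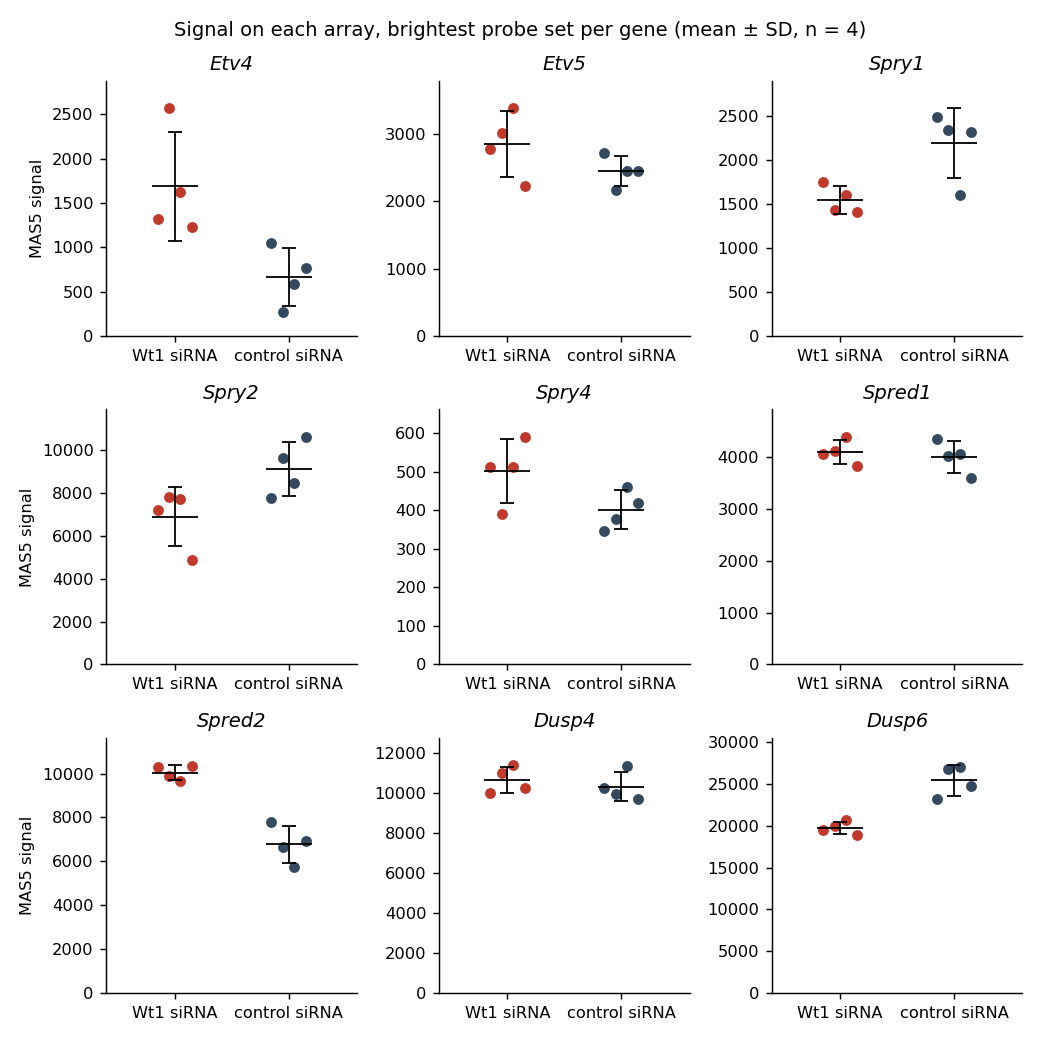
MAS5 signal (linear, from 0) on each of the 8 arrays for the brightest probe set of 9 member genes, Wt1 siRNA left and control siRNA right; points are arrays and bars are mean ± SD (n = 4). The groups are apart for Etv4, Spred2 and Dusp6, whereas 1 control point of Spry1 lies among the Wt1 siRNA points.

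Promoter windows are shown for Spred2, Dusp6, Spry1 and Spry2, since these were called with the signals as deposited, over probe sets or with 1 probe set per gene; Etv4 was called too and is named only. The windows run from 250 bases before to 50 bases after the RefSeq start of the gene (GRCm38.p6), 5′ to 3′ on the strand of the gene. The search covered windows of 7 of the 10 members, with 9 windows. Capitals mark matches, on either strand, to the ETS core CCGGAA, to the PEA3 site AGGAAG or to GTGGGNG, the core of a sequence bound by WT1; none of the matches shown overlap.
Spred2, chr11:19924192-19924491, plus strand: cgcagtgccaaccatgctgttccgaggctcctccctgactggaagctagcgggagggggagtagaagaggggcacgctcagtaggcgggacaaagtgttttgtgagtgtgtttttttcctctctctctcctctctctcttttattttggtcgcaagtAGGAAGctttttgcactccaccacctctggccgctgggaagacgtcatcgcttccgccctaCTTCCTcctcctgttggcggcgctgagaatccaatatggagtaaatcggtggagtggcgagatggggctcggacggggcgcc
Dusp6, chr10:99262981-99263280, plus strand: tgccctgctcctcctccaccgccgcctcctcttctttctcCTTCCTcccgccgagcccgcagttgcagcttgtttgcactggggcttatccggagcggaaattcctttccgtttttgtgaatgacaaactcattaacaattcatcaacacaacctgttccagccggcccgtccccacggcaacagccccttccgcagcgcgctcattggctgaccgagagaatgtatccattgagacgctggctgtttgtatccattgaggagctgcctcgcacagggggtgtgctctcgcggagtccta
Spry1, chr3:37639697-37639996, plus strand: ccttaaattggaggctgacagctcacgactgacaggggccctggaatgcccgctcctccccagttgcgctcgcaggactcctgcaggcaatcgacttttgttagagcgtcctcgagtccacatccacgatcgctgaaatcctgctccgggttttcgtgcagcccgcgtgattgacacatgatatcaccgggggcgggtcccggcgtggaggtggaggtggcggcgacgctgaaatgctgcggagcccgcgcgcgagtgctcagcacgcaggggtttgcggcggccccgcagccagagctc
Spry2, chr14:105896770-105897069, minus strand: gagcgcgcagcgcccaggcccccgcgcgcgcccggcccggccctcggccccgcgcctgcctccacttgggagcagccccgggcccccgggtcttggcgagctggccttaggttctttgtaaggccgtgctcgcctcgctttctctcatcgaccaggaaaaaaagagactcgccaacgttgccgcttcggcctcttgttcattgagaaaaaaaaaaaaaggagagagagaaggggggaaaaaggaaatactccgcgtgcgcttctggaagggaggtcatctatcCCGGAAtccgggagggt
Spred2 holds the PEA3 letters at positions 158 and 219, counted from 1 at the 5′ end of the window, and Dusp6 at position 41. Spry2 holds CCGGAA at position 284. The Spry1 window has none of the 3 motifs, and GTGGGNG occurs in none of these 4 windows, which says only that these letters are not there. Among windows searched and not shown, an Etv1 window holds GTGGGNG at position 63 and AGGAAG at 243 and 247. An Etv5 window holds AGGAAG at 252. Among 32851 windows of the same length, 14.9% hold CCGGAA, 35.4% AGGAAG and 31.6% GTGGGNG, so such matches are common.

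Among the ETS factors, Etv4 had the widest difference of all tested member probe sets. Its signals were 1322.7, 2567.9, 1625.4 and 1230.3 on Wt1 siRNA arrays 1 to 4, against 1051.6, 268.1, 584.9 and 765.0 on control siRNA arrays 1 to 4. The lowest Wt1 siRNA array lay just above the highest control array, and the arrays within a group differed widely. The means were 1687 ± 611 after Wt1 siRNA and 667 ± 328 after control siRNA (SD, n = 4 each). The difference was 1.44 ± 0.37, or 2.71-fold (limma adjusted p = 0.0151), with a 95% interval of 0.64 to 2.24. Leaving out 1 array at a time gave 1.05 to 1.71, the lowest without control siRNA replicate 2, and each of these passed. The second Etv4 probe set had a mean signal of 167, below the filter, with signals of 67.8 to 235.2 on Wt1 siRNA arrays and 118.2 to 284.8 on control siRNA arrays, so it was not tested. With the mean over both probe sets Etv4 was at 0.60 and did not pass (adjusted p = 0.100).

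Etv5, the partner of Etv4 in the ureteric bud, did not pass on any of its 3 probe sets. The brightest had 2770.1, 3009.8, 3374.0 and 2218.6 on Wt1 siRNA arrays, against 2711.5, 2165.7, 2439.4 and 2447.5 on control siRNA arrays. The groups overlapped through Wt1 siRNA replicate 4, which lay below 3 of the control arrays. The difference was 0.21 ± 0.13 (adjusted p = 0.268, 95% interval -0.07 to 0.49), and without Wt1 siRNA replicate 4 it was 0.32 and passed (adjusted p = 0.0488). The probe set that can match several transcripts (suffix _s_at) had 972.5, 1263.3, 1558.6 and 1655.3 on Wt1 siRNA arrays, against 971.5, 1072.4, 840.7 and 1024.4 on control siRNA arrays. Its difference of 0.46 ± 0.17 missed the threshold (adjusted p = 0.0764). It passed under quantile normalization (adjusted p = 0.0422), with centring (0.0266) and without Wt1 siRNA replicate 1 (0.61, adjusted p = 0.0184). The remaining Etv5 probe set was at 0.45 ± 0.32 (adjusted p = 0.342), so the 3 estimates shared a sign, and the intervals of the first and the last of these include 0.

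**Figure D2:**
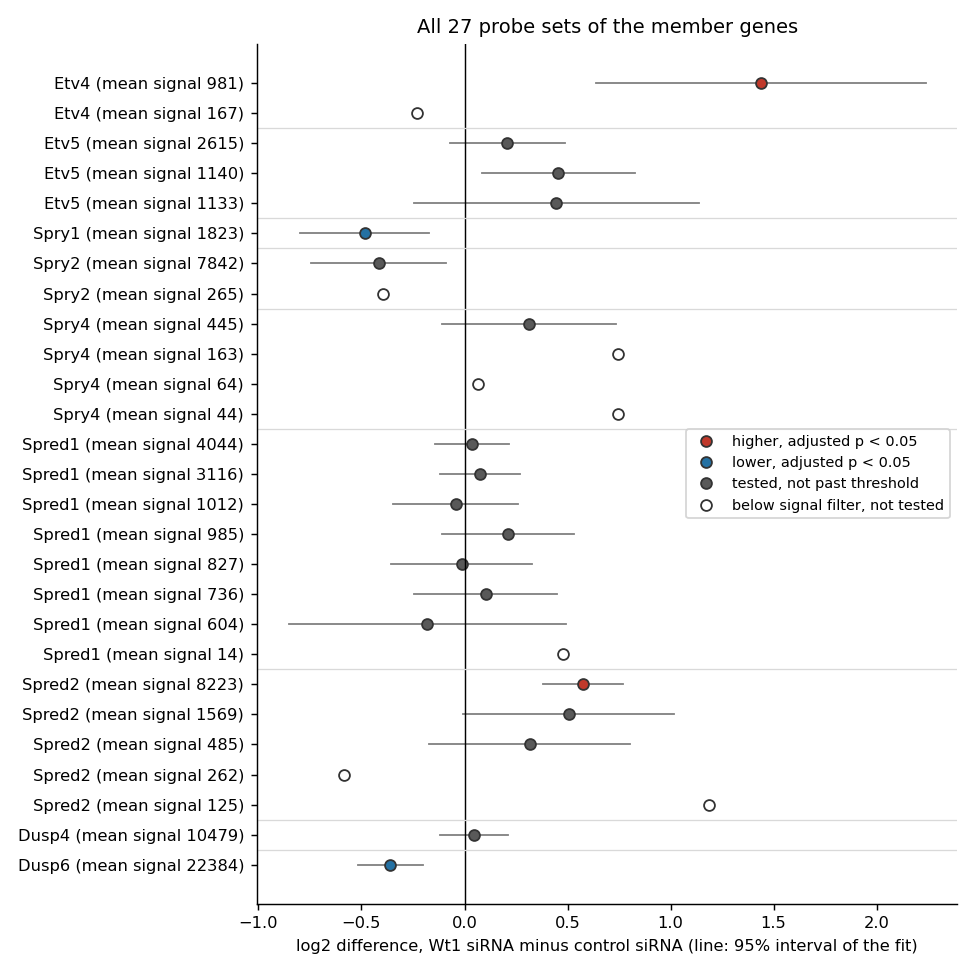
Log2 difference (Wt1 siRNA minus control siRNA) of all 27 member probe sets, grouped by gene with the mean signal over 8 arrays beside each name; lines are 95% intervals of the fit and open circles are probe sets under the signal filter. Etv4 at 1.44 and Spred2 at 0.58 are called higher and Dusp6 at -0.36 and Spry1 at -0.48 lower. The 7 tested Spred1 probe sets, at -0.18 to 0.21, are not called.

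Among the Sprouty genes, which encode inhibitors of signalling between receptor and RAF, Spry1 fell. Its single probe set had 1744.1, 1427.3, 1602.0 and 1413.2 on Wt1 siRNA arrays, against 2486.6, 2338.2, 1600.3 and 2321.7 on control siRNA arrays. Control siRNA replicate 3 lay inside the Wt1 siRNA range while the other control arrays lay above it. The means were 1547 ± 157 after Wt1 siRNA and 2187 ± 398 after control siRNA (SD). The difference was -0.48 ± 0.14, that is 71.5% of control (adjusted p = 0.0305), and -0.63 without control siRNA replicate 3 (adjusted p = 0.00160). Leaving out any other control siRNA array moved the adjusted p past the threshold, to 0.0846 for replicate 1, 0.0819 for replicate 2 and 0.0860 for replicate 4. The same held for Wt1 siRNA replicate 2 (0.0819), 3 (0.0545) and 4 (0.0623). Centring gave -0.38 (adjusted p = 0.0980), testing dim probe sets too gave 0.0527, and a variance model free of intensity gave 0.0532. Tested with 1 probe set per gene, Spry1 passed (adjusted p = 0.0141) and kept its call when any array was left out, but not with centring (0.0711).

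Spry2 had 7216.5, 7829.8, 7724.7 and 4864.8 on Wt1 siRNA arrays, against 7757.1, 9641.5, 8471.0 and 10633.6 on control siRNA arrays. Control siRNA replicate 1 was the only control array within the Wt1 siRNA range. The difference of -0.42 ± 0.15 did not pass over probe sets (adjusted p = 0.0663) and passed when 1 probe set per gene was tested (adjusted p = 0.0330). That second call ended when control siRNA replicate 2 (adjusted p = 0.0795) or 4 (0.103) was dropped, and Wt1 siRNA replicate 4 likewise (-0.26, 0.0580). Centring ended it too (-0.31, 0.165), as did testing all genes (0.0661) and a variance model free of intensity (0.0587). The dimmer Spry2 probe set, with a mean signal of 265, was at -0.40 and not tested.

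Spry4 was tested on 1 of 4 probe sets. Its signals there were 512.3, 390.9, 513.1 and 591.1 on Wt1 siRNA arrays, against 346.1, 377.7, 462.0 and 420.0 on control siRNA arrays. The groups overlapped, and the difference of 0.31 ± 0.19 did not pass (adjusted p = 0.268, 95% interval -0.11 to 0.74). The other 3 Spry4 probe sets had mean signals of 44.1 to 163, and their differences of 0.07 to 0.75 were not tested. The Sprouty genes thus gave 1 fall, 1 fall by the test per gene alone and 1 positive difference that did not pass; a difference between Spry4 and the other two was not tested.

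The Spred genes encode membrane inhibitors related to Sprouty that recruit neurofibromin, an inactivator of RAS. Spred2 rose on its brightest probe set, with 10289.6, 9893.0, 9639.3 and 10342.4 on Wt1 siRNA arrays, against 7773.3, 6636.7, 5747.7 and 6944.2 on control siRNA arrays. All Wt1 siRNA arrays lay clearly above all control arrays. The means were 10041 ± 335 after Wt1 siRNA and 6775 ± 837 after control siRNA (SD). The difference was 0.58 ± 0.09, a rise to 1.49-fold (adjusted p = 0.000868), and it passed in all 20 alternatives run for this probe set, from 0.50 to 0.68.

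The other tested Spred2 probe sets were at 0.51 ± 0.23 (adjusted p = 0.144) and 0.32 ± 0.22 (adjusted p = 0.338). Control siRNA replicate 3 was the lowest array on both, at 735.4 and 298.8. The 2 dim Spred2 probe sets went apart, at -0.59 and 1.19, with mean signals of 262 and 125. With the mean over all 5 probe sets Spred2 was at 0.40 and did not pass (adjusted p = 0.0613). Spred1 had 4067.6, 4109.2, 4391.9 and 3830.1 on Wt1 siRNA arrays, against 4343.1, 4023.7, 4050.7 and 3591.0 on control siRNA arrays, on its brightest probe set. The groups covered the same range, and the difference was 0.04 ± 0.08 (adjusted p = 0.793, 95% interval -0.14 to 0.22). Over its 7 tested probe sets, which share a gene and are not replicates, Spred1 differences were -0.18 to 0.21 with adjusted p of 0.334 to 0.963.

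Dusp6, the cytoplasmic ERK phosphatase gene and a common readout of ERK signalling, fell. Its signals were 19551.3, 19923.9, 20630.6 and 18929.9 on Wt1 siRNA arrays, against 23175.4, 26805.1, 26986.5 and 24710.8 on control siRNA arrays. The groups did not overlap. The means were 19759 ± 711 after Wt1 siRNA and 25419 ± 1818 after control siRNA (SD). The difference was -0.36 ± 0.07, that is 77.8% of control (adjusted p = 0.00402, 95% interval -0.52 to -0.20). Leaving out each array gave -0.40 to -0.33, all past the threshold, and quantile normalization gave -0.45 (adjusted p = 4.99e-05). Centring on the array medians ended the call (-0.25, adjusted p = 0.224).

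Dusp4, the nuclear phosphatase gene, had 10021.1, 10993.3, 11401.7 and 10249.3 on Wt1 siRNA arrays, against 10275.0, 9964.3, 11345.3 and 9722.1 on control siRNA arrays. The groups overlapped throughout, with a difference of 0.05 ± 0.07 (adjusted p = 0.696) and a 95% interval of -0.12 to 0.21. The Dusp4 and Dusp6 intervals do not overlap, but a difference between the genes was not tested.

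**Figure D3:**
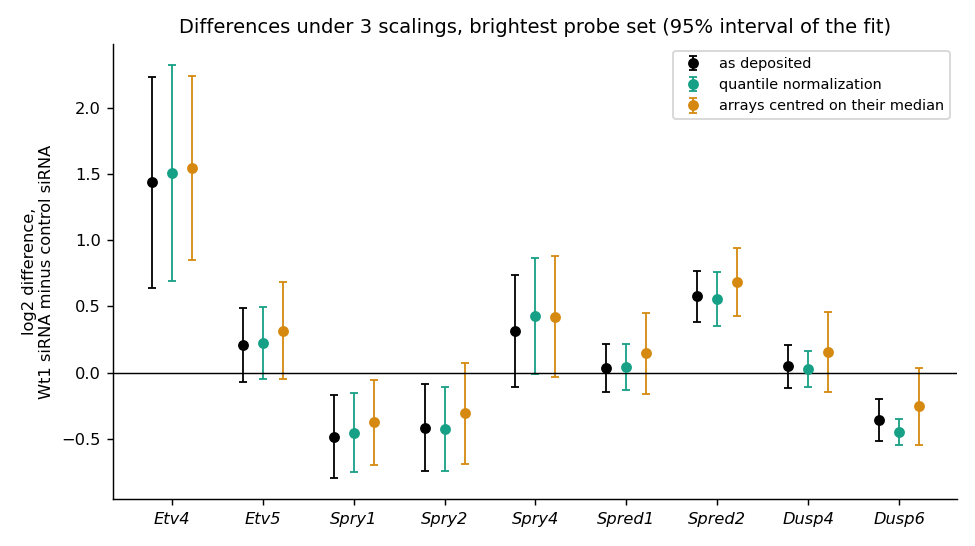
Log2 difference (Wt1 siRNA minus control siRNA) of the brightest tested probe set of 9 member genes as deposited, after quantile normalization and after centring of each array; bars are 95% intervals. Etv4 and Spred2 stay above 0 in the 3 scalings, whereas the Spry2 and Dusp6 intervals reach 0 with centring.

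The falls did not pass with centring. It moved the median difference over all tested probe sets by 0.11 on the log2 scale, from -0.01 to 0.10, and added the same amount to each member. The median used was that of all probe sets other than controls, including those below the filter on signal. Array medians of 279.1 to 346.1 lay around the lowest mean signal tested, 291.1. The SE changed as well: in the test per gene it went from 0.07 to 0.14 for Dusp6 and from 0.34 to 0.25 for Etv4. With centring, 4 member probe sets were higher and 0 lower by limma, the 4 being Etv4, 1 of Etv5 and 2 of Spred2. At an unadjusted p under 0.05, 1 was lower with centring, Spry1. Quantile normalization gave 3 higher and 2 lower.

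With 1 probe set per gene, the brightest, 8 members were among the 9096 tested genes, and Spry4 was below the filter at a lowest mean of 663.9. Of these 8, Etv4 and Spred2 were higher, Spry1, Spry2 and Dusp6 lower, and Etv5, Spred1 and Dusp4 did not pass. This is 62.5% of 8 genes, against 37.3% of all tested genes (18.8% higher and 18.5% lower). The members were chosen with earlier results of these data known, so this share is not independent of the data. The calls were 2 with centring, both higher (Etv4 and Spred2), and 3 with probe sets averaged per gene, all lower (Spry1, Spry2 and Dusp6). Spry1 and Dusp6 have 1 probe set each, so averaging could not change their differences. The Etv4 and Spred2 averages took in probe sets below the filter on signal. Which calls averaging ended thus depended on the probe sets of each gene, and is no result about direction. With centring 1 member gene, Spry1, was lower at an unadjusted p under 0.05. The median difference was 0.04 for the members and 0.02 for all tested genes.

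The kinase cascade that leads to ERK was examined through listed genes, 1 probe set each. Of 24 genes of the RAS to ERK cascade and its adaptors 15 were tested, and 4 rose, 3 fell and 8 did not pass (median 0.15, against 0.02 over all tested genes). Rps6ka3, encoding an RSK kinase that ERK activates, fell by 1.22 on the log2 scale, to 2199.5 to 2755.8 on Wt1 siRNA arrays against 5044.1 to 6226.2 on control siRNA arrays (limma adjusted p = 1.16e-06). Sos1, an activator of RAS, was at -0.47 ± 0.10 (adjusted p = 0.00190), and this call was lost with centring (0.0821). Shoc2, a scaffold for RAF activation, rose by 0.62 ± 0.08 (adjusted p = 6.98e-05), and the adaptor gene Shc1 by 0.52 ± 0.13 (0.00563). Of 7 genes of FGF receptors and the RET complex 4 were tested, 3 of them not passing. Fgfr2 was at -0.30 ± 0.10 (adjusted p = 0.0369), but its other tested probe set was at 0.13, and 14 of 20 alternatives ended the call, 1 of them with the sign turned.

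**Figure D4:**
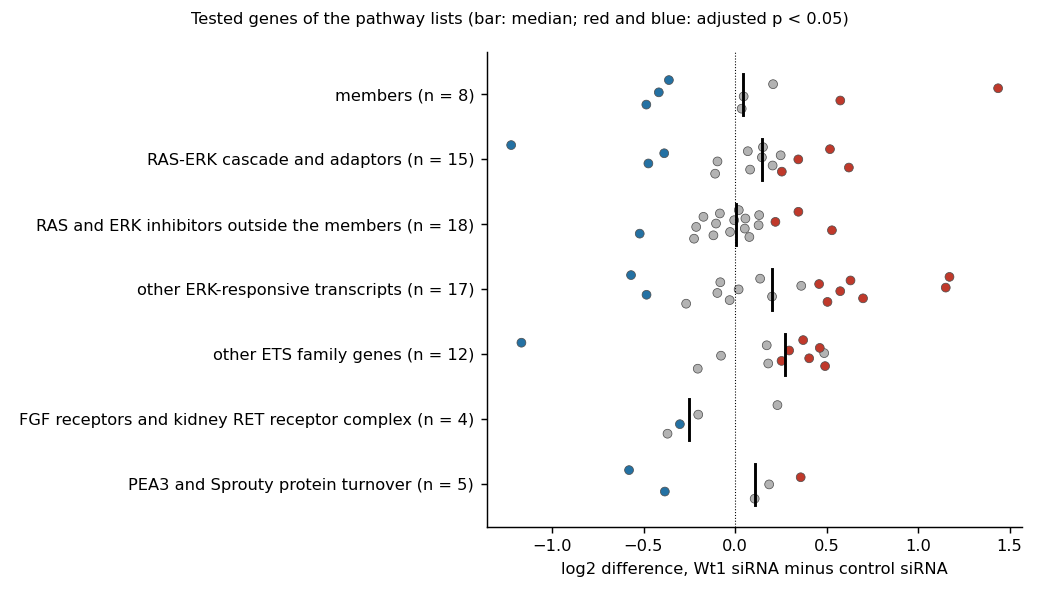
Log2 difference (Wt1 siRNA minus control siRNA) of each tested gene, 1 probe set per gene, for the members and for the 6 pathway lists; points are genes, black bars are medians, and red and blue mark calls. The members spread to both sides of 0, and the ETS list has 6 calls above 0 and 1, Fli1, at -1.17.

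Among 25 listed inhibitors of RAS and ERK outside the members, 18 were tested, and 3 rose, 1 fell and 14 did not pass (median 0.01). Dusp7, encoding a phosphatase close to Dusp6, rose by 0.53 ± 0.09 with 2517.0 to 3066.2 on Wt1 siRNA arrays and 1876.2 to 2082.5 on control siRNA arrays, and its other 2 tested probe sets were at 0.46 and 0.84. Dusp1, a nuclear phosphatase of stress kinases, rose by 0.35 ± 0.08. Dusp14, of the same phosphatase family, fell to 2566.4 to 2827.4 on Wt1 siRNA arrays, against 3626.4 to 4485.5 on control siRNA arrays (-0.52 ± 0.09, adjusted p = 0.000499). Rasa1, encoding a RAS inactivator, was at 0.22 ± 0.07 (adjusted p = 0.0325), a call lost with centring (0.0870), with probe sets averaged (0.131) and when control siRNA replicate 2 or 3 or Wt1 siRNA replicate 1 or 2 was dropped (0.0589 to 0.0945).

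Of 22 other ETS genes 12 were tested, and 6 rose, 1 fell and 5 did not pass (median 0.28). Fli1 was lower, at -1.17 ± 0.16 with 530.0 to 939.5 on Wt1 siRNA arrays and 1494.9 to 1791.2 on control siRNA arrays. Elk3, a ternary complex factor, rose by 0.49 ± 0.08 and was at 0.53 and 0.83 on its other tested probe sets. Etv3 was at 0.46 ± 0.11 and Elf1 at 0.41 ± 0.09, but other probe sets of Etv3 were at -0.27 and 0.22 and the other of Elf1 at -0.33. Averaged over probe sets neither passed (adjusted p = 0.839 for Etv3 and 0.900 for Elf1).

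Of 21 other transcripts that respond to ERK 17 were tested, and 7 rose, 2 fell and 8 did not pass (median 0.20). The AP-1 gene Junb had 4392.5 to 6150.6 on Wt1 siRNA arrays and 2233.5 to 2910.5 on control siRNA arrays. Fosl1, also of the AP-1 family, had 4740.3 to 7550.8 on Wt1 siRNA arrays and 2209.6 to 3420.3 on control siRNA arrays, and both were called higher. Maff rose by 0.70 ± 0.13. Hbegf, an EGF receptor ligand, rose by 0.63 ± 0.10, while its other tested probe set was at -0.06 and the mean of both missed the threshold (adjusted p = 0.0504).

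Of 6 listed genes for the turnover of PEA3 and Sprouty proteins 5 were tested, and 1 rose and 2 fell. Tesk1, a kinase that binds Sprouty proteins, was at -0.58 ± 0.15 (adjusted p = 0.00850). Det1, of a ubiquitin ligase that degrades PEA3 factors, was at -0.38 ± 0.11 (adjusted p = 0.0140), lost with centring and when control siRNA replicate 4 was dropped (0.0563), and the ligase gene Siah1a at 0.36 ± 0.09, with -0.01 and 0.07 on its other probe sets. Averaged over its probe sets Siah1a was at 0.14 and did not pass (adjusted p = 0.297). Over the 6 lists 31 of 71 tested genes were called (43.7%, 21 higher and 10 lower), against 37.3% of all tested genes. The lists, too, were chosen with earlier results of these data known.

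Markers of cell types were read beside the members, as summed signals of the brightest probe set per gene, with counts from the test per gene. Of the 7 mesenchyme markers 5 were above background on all arrays, Vim and Col1a1 far above it. Pdgfrb was above background on 6 arrays and Foxd1 on none. Of the 4 tested, Col1a1 (-0.65) and Tbx18 (-0.91) were lower, and Vim (0.26) and Col1a2 (-0.18) did not pass. Podocyte markers summed to 1306 to 1837 on Wt1 siRNA arrays and 2767 to 5862 on control siRNA arrays, with 2 of 2 tested lower. Ureteric bud markers, of the tissue in which Etv4 and Etv5 are best known, summed to 2173 to 3374 on Wt1 siRNA arrays and 2649 to 3062 on control siRNA arrays, and they did not move one way. Of the 8 genes Gata3 alone passed the brighter filter of the test per gene and was lower. Gata3 had 479.1 to 656.2 on Wt1 siRNA arrays and 667.7 to 1340.1 on control siRNA arrays (-0.64 ± 0.21, limma adjusted p = 0.0496 over probe sets). Cdh1, the gene of the epithelial adhesion protein E-cadherin, was tested over probe sets and was higher, at 708.1 to 920.4 on Wt1 siRNA arrays and 332.0 to 503.6 on control siRNA arrays (0.95 ± 0.19, adjusted p = 0.00352). Ret itself was at 0.31 ± 0.28 and did not pass (adjusted p = 0.465). Nephron progenitor markers summed to 2265 to 2855 on Wt1 siRNA arrays and 1353 to 2010 on control siRNA arrays, with Osr1 higher and Cited1 and Sall1 never above background. Six2 (0.45, limma adjusted p = 0.243) and Eya1 (0.19, 0.566) were tested over probe sets and did not pass. Endothelial markers summed to 1697 to 2043 on Wt1 siRNA arrays and 2072 to 2890 on control siRNA arrays, with Kdr lower and Pecam1 and Tek never above background. Cdh5 was above background on 1 array and Emcn on 2, and neither was tested. Leukocyte markers summed to 3254 to 3668 on Wt1 siRNA arrays and 2711 to 3321 on control siRNA arrays, with Ptprc and Itgam never above background. The leukocyte sum holds opposite calls. Cd68, a lysosomal protein gene of macrophages, was higher, at 1911.9 to 2317.2 on Wt1 siRNA arrays and 1054.8 to 1134.8 on control siRNA arrays (limma adjusted p = 5.16e-05). Csf1r, a receptor gene of the same cells, was lower, at 728.1 to 910.8 on Wt1 siRNA arrays and 1173.9 to 1718.6 on control siRNA arrays (adjusted p = 0.00402). These are differences in marker transcripts and not counts of cells, and their part in the members' results was not tested.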

How the data were processed

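The authors' deposited table holds 1 intensity value per probe set and array, linear, from MAS5 per the submitters' processing notes (version not given in the sources used here). The method subtracts mismatch from perfect match signal and scales each array, and the trimmed mean was 1500.0 on every array. Gene symbols came from the platform annotation and were updated through Entrez IDs: of 45037 probe sets other than controls 34945 had 1 symbol, 932 several and 9160 none here. Background was the highest signal of 27 Bacillus subtilis control probe sets.

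Signals were log2 transformed with no further normalization and fitted with limma 3.58.1 in R 4.3.3 (lmFit, eBayes with intensity trend), two-sided, with Benjamini-Hochberg adjustment over 22518 probe sets or, with the brightest probe set per gene, over 9096 of 18193 genes. The median SD within groups was 0.191 for tested and 0.863 for untested probe sets (log2), which sets the precision together with the number of arrays. The fit was also run on simulated data with independent noise and far fewer changed probe sets than were called here. No result rests on that run. No batch, scan date or detection call was at hand, and arrays shared at most 42 identical values. Members and lists were chosen with earlier results of these data known. Named genes are all members, Wt1 and up to 4 called genes of each list, largest absolute difference first. As alternatives, the fit was repeated with a block for replicate number, other scalings, an added 16 or 64, other filters, variance models, array weights, probe set choices, a threshold of 0.01 and leaving out each array. Matches to promoter windows were sought in both strands. Figures were drawn with matplotlib 3.10.9.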

Additional observations from a re-analysis of the deposited data

Results flagged for a closer look

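In 56 groups of 4 arrays (27 member probe sets and Wt1, each in both treatments), 4 had 1 array far from the other three by Dixon's test, which marks about 5% of groups by chance. Wt1 siRNA replicate 1 had 919.5 on a Spred1 probe set, against 784.5 to 804.5 on the other Wt1 siRNA arrays. On 2 dim Spred2 probe sets below the signal filter, Wt1 siRNA replicate 4 had 566.7, against 135.1 to 171.2, and 51.6, against 247.7 to 338.7. Control siRNA replicate 3 had 1600.3 for Spry1, against 2321.7 to 2486.6 on the other control siRNA arrays, and the Spry1 difference without it was -0.63.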

How the results depend on the processing

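Over 21 alternatives, the Wt1 difference kept its sign and call wherever it could be computed (-2.37 to -2.18); without probe sets of suffix _s_at and _x_at it has no value. The number of member probe sets called stayed at 3 to 5 in all alternatives other than a threshold of 0.01, which left 2, and was 3 to 5 when each array was left out. Member genes called were 4 to 5 when each array was left out, 6 with array weights, which added Etv5 (0.28, adjusted p = 0.0285), 2 with arrays centred on their medians, and 3 each among the brightest 25%, with probe sets averaged per gene and at 0.01. At 0.01, 2720 of all probe sets were called, against 3774 to 5763 when each array was left out and 5194 as reported. Pathway genes called numbered 19 with the mean over probe sets, and 27 to 34 when each array was left out. With the replicate block 4 member probe sets and 4608 of all probe sets were called. The same-numbered arrays correlated at -0.037, -0.062, 0.043 and 0.082 in their deviations from the group means, and 1 of 4 Wt1 siRNA arrays was closest to its own number, so the numbers were not taken as pairs. Signs turned for 4 uncalled Spred1 probe sets, which were at -0.18 to 0.04 as reported. Quantile normalization gave 0.025 and 0.070, centring 0.065 and 0.094, and array weights 0.081. Leaving out each array in turn gave ranges of -0.015 to 0.077, -0.143 to 0.020, -0.389 to 0.052 and -0.122 to 0.088. Fgfr2 turned to 0.13 without probe sets of suffix _s_at and _x_at. The 8 remaining member probe sets were below the filter on signal and were not tested, and 3 of them were above the highest background signal on no array.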
